A study of Mus musculus with 48 samples.

Results

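A set of 8 genes named for the kidney lineage was followed here: the transcription factor genes Pax2, Pax8, Sall1, Lhx1 and Emx2, the cadherin gene Cdh16, the secreted protein gene Wfdc2 and the sulfotransferase gene Sult1c2. They were chosen by symbol, and all 8 were among the 39637 genes of the count table. Renca is a line grown from a renal adenocarcinoma of a BALB/c mouse, and AB1 is a mesothelioma line of the same strain. Cells of either line were injected under the skin of female BALB/c mice aged 8 to 9 weeks, and the whole tumour was taken for RNA sequencing on day 10 for Renca and on day 8 for AB1. That day counted as day 0, before anti-CTLA4 plus anti-PDL-1, and each mouse carries a response class from that immunotherapy. This gave 12 Renca responders, 12 Renca non-responders, 12 AB1 responders and 12 AB1 non-responders. How the class was assigned to a mouse whose tumour had been removed is not given in the sources used here.

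The kidney tubule forms from an embryonic epithelium in which PAX2 and PAX8, a pair of related paired-box transcription factors, are needed early. LHX1 and EMX2 act in the same epithelium and in the ureteric bud, and SALL1 acts in the progenitor cells around the bud. CDH16, also called kidney-specific cadherin, sits on the lateral membrane of mature tubule cells, and PAX8 is a pathology marker of tumours of renal origin. WFDC2 is a secreted whey acidic protein family member made by several epithelia, and SULT1C2 adds sulfate to small molecules.

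Each library held between 16.4 and 27.8 M counts (M for mega). Levels are given as counts scaled to a common TMM-adjusted library total (CPM), and differences as log2 fold changes with their standard errors from edgeR's quasi-likelihood test, with p adjusted by the Benjamini-Hochberg method over all genes tested and a threshold of 0.05. The replicate numbers carry the sequencing flow cell: Renca replicates 1 to 6 and AB1 replicates 1 to 5 shared one flow cell per tumour, called the first here, and later numbers shared another, called the second, so that no flow cell held both tumours. Tumour, day of removal and flow cell cannot be told apart, so a difference between Renca and AB1 is a difference between these sets of libraries. The 12 libraries of a group had separate titles, and the labels do not name the mouse behind each one. Of 5 renal tubule markers in the table, Cdh16, Pax2, Pax8 and Lrp2 were present in Renca and near 0 in AB1. Cdh16, Pax2 and Pax8 belong to the set followed here, which was chosen with earlier results known. They are therefore no separate check of the tumour label. Outside the set, Lrp2 averaged 3.97 CPM in Renca and 0.0212 CPM in AB1. Umod, the uromodulin gene of the loop of Henle, had no count in any of the 48 libraries. Summed, the mesothelial markers did not mark AB1. Of 7 listed, the 5 in the table summed to medians of 2.58 CPM in Renca responders and 2.22 CPM in Renca non-responders. The medians were 1.59 CPM in AB1 responders and 1.46 CPM in AB1 non-responders. Bnc1 made up most of the Renca sum, with means of 1.84 CPM in Renca and 0.539 CPM in AB1. Wt1 went the other way, at 0.578 CPM in Renca and 1.59 CPM in AB1, and Upk3b, Lrrn4 and Calb2 were near 0 in both.

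Sequence upstream of the start site is shown for 4 of the genes as examples of both patterns: Wfdc2, Sall1 and Pax8 were high in Renca and near 0 in AB1, and Emx2 stood at one level in both. The sequences are the 250 bases before a RefSeq start site in GRCm38.p6, printed 5′ to 3′ on the strand of the gene, with a match to the motif GTCACG in capitals.
Wfdc2: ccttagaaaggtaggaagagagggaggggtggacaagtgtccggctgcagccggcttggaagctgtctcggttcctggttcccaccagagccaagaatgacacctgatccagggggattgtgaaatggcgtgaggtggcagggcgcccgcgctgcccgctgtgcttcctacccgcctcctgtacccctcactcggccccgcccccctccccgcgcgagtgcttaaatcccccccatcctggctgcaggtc
Sall1: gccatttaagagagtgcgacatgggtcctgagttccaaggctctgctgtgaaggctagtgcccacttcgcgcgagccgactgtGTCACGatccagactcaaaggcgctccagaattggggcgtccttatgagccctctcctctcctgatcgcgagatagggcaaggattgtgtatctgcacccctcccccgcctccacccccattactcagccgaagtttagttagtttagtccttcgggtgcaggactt
Pax8: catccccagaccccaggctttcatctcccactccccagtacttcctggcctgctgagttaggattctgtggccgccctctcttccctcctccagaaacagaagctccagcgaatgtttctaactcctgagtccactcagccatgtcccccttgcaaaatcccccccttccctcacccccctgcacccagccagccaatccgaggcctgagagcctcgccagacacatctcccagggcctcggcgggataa
Emx2: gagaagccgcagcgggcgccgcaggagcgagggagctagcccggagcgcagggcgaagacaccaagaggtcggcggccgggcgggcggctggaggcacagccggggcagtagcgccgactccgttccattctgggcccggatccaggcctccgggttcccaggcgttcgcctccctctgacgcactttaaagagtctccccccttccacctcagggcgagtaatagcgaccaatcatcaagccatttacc
These windows lie at chr2:164562465-164562714 on the plus strand for Wfdc2, chr8:89044163-89044412 on the minus strand for Sall1, chr2:24475600-24475849 on the minus strand for Pax8 and chr19:59458440-59458689 on the plus strand for Emx2. The RefSeq table held such windows for 7 of the 8 genes. Both strands of each window were searched for GTCACG, a core of paired-domain sites, TAATTA, a homeobox core, and TATAAA, the TATA box. The core GTCACG began 167 bases before the start site in the Sall1 window, and its reverse complement began 52 bases before the start site of Lhx1, whose transcript was nearly absent. None of the 3 motifs occurred in the windows of Pax2, Pax8, Emx2, Wfdc2 or Sult1c2, nor in the further Sall1 start sites of the table. Over all 32851 windows of that length, GTCACG occurred in 6.93%, TAATTA in 4.84% and TATAAA in 12.4%. In base composition, the Emx2 window was 67.2% G or C with 24 CG dinucleotides, and the Sult1c2 window was 46.4% with 4, against medians of 52.4% and 6 over all windows.

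In Renca, 6 of the 8 genes were transcribed at mean levels from 18.3 to 516 CPM and had from 1 to 18 counts in all 24 AB1 libraries together. Scaled by merged GENCODE M21 exon length (RPKM), Wfdc2 led at 452 ± 50.9 RPKM in Renca, followed by Cdh16 at 63.3 ± 12.5 and Sult1c2 at 12.8 ± 1.49 (SD, n = 24). Sall1 stood at 8.64 ± 0.968 RPKM, Pax8 at 8.23 ± 1.19, Emx2 at 7.29 ± 0.827, Pax2 at 3.39 ± 0.434 and Lhx1 at 0.0433 ± 0.0273 RPKM (SD, n = 24). Wfdc2 was above Cdh16, Cdh16 above Sult1c2, Sult1c2 above Sall1, Emx2 above Pax2 and Pax2 above Lhx1 in 24 of 24 libraries. Sall1 was above Pax8 in 18 of 24 and Pax8 above Emx2 in 18 of 24, with means no further apart than 1.13 times, so the order of these neighbours did not exceed their spread.

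**Figure D1:**
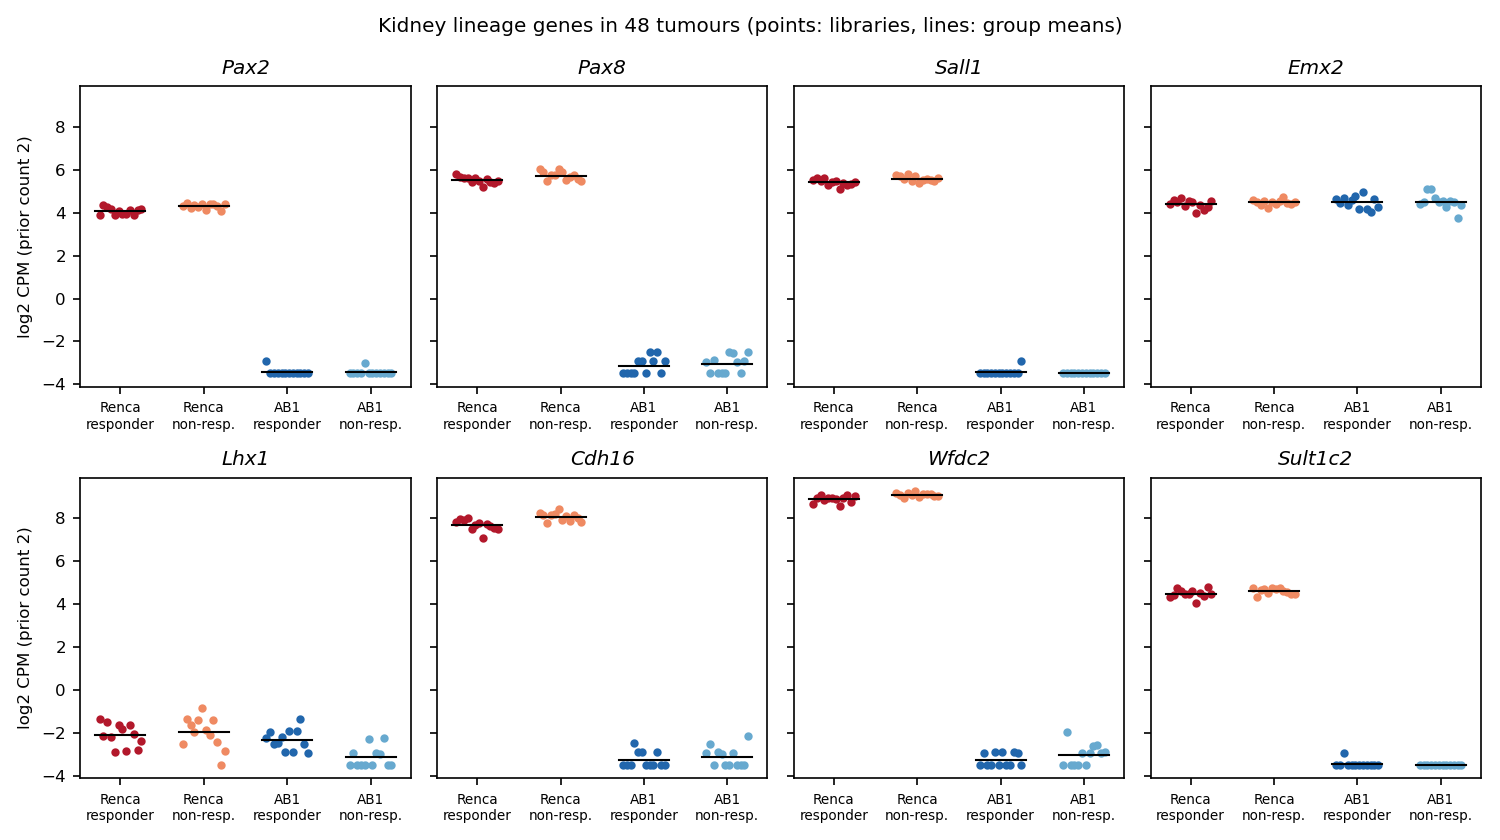
Log2 CPM with a prior count of 2 (y axis) of the 8 genes in the 12 libraries of each group (x axis); points are libraries and lines are group means. Pax2, Pax8, Sall1, Cdh16, Wfdc2 and Sult1c2 separate all 24 Renca libraries from all 24 AB1 libraries, Emx2 overlaps throughout and Lhx1 stays near the floor in all 4 groups.

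The transcription factor genes fell into 3 patterns between the tumours. Pax2 (chromosome 19, 44756045 to 44837871 in GRCm38) ranged from 14.6 to 21.6 CPM in Renca, with a median of 18.1, and reached at most 1 count in any AB1 library. Pax8 (chromosome 2, 24420560 to 24475599) ranged from 37.1 to 65.8 CPM in Renca with a median of 48.6, and from 0 to 0.0898 CPM in AB1. Sall1, a zinc finger repressor gene (chromosome 8, 89027235 to 89044162), ranged from 34.4 to 55.7 CPM in Renca with a median of 45 and had 1 count in 1 AB1 responder library. For these 3 genes the lowest Renca library was above the highest AB1 library.

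Emx2, a homeobox gene (chromosome 19, 59458372 to 59465357), was the exception among the genes with more than traces of transcript. It averaged 21.9 ± 2.48 CPM in Renca and 23 ± 5.05 CPM in AB1 (SD, n = 24), with ranges of 16 to 26.7 CPM in Renca and 13.5 to 34.2 CPM in AB1 that overlapped throughout. The difference of Renca from AB1 was -0.08 ± 0.071 on the log2 scale (edgeR quasi-likelihood, adjusted p = 0.269), in a comparison where 81.4% of 16258 genes passed. Emx2os, which overlaps the start of Emx2 on the other strand, did differ: it averaged 1.99 ± 0.48 CPM in Renca and 6.24 ± 1.55 CPM in AB1 (SD, n = 24), a log2 difference of -1.66 ± 0.10 (edgeR quasi-likelihood, adjusted p = 2.86e-20). Whether the authors counted by strand is not given in the sources used here, and reads of this pair may not have been told apart.

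Lhx1, a LIM homeobox gene (chromosome 11, 84518284 to 84525535), was close to silent in both tumours, with 91 counts over 24 Renca libraries and 43 over 24 AB1 libraries. It did not pass the filter on low counts in any comparison. Counts per library ran from 0 to 12 in Renca and from 0 to 7 in AB1, and the groups overlapped. The pooled ratio of Renca to AB1, with scaled totals, was 2.38 (95% interval 1.64 to 3.51), and the interval covers counting error only.

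Cdh16, the tubule cadherin gene (chromosome 8, 104601911 to 104624396), ranged from 136 to 349 CPM in Renca with a median of 240, and from 0 to 0.135 CPM in AB1 with a median of 0. Wfdc2 (chromosome 2, 164562413 to 164568510) was the most abundant of the 8, at 376 to 617 CPM in Renca with a median of 522, against 0 to 0.169 CPM in AB1. Sult1c2 (chromosome 17, 53829637 to 53846339) ranged from 16.5 to 27.9 CPM in Renca with a median of 23.4 and had 1 count in 1 AB1 responder library. As with Pax2, Pax8 and Sall1, no AB1 library reached the lowest Renca library for any of the 3. The pseudogenes Sult1c2-ps1 and Sult1c2-ps2 had 15 and 142 counts in Renca beside 11890 of Sult1c2, and none in AB1, so a small share of Sult1c2 reads may have been divided between copies.

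Since AB1 held so few counts of these 6 genes, the contrast is best given as a ratio of pooled counts with its counting interval. On the log2 scale, Renca exceeded AB1 by 14.07 for Wfdc2 (95% interval 13.39 to 14.85), by 13.26 for Cdh16 (12.51 to 14.13) and by 10.63 for Pax8 (9.97 to 11.38). It exceeded AB1 by 14.66 for Sall1 (12.19 to 19.97), by 13.71 for Sult1c2 (11.23 to 19.01) and by 12.35 for Pax2 (10.49 to 15.39), where AB1 had 1, 1 and 2 counts. Fitted values, which depend on the prior count, gave Wfdc2, Cdh16 and Sall1 the 3 largest differences of 16258 genes, and all 6 were among the 25 genes (0.154%) with a log2 difference of at least 10. Being higher in every Renca library than in every AB1 library was true of 13.2% of the genes tested, and 39.3% were called higher in Renca. These 6 genes passed the filter through Renca alone, so that a call of higher in Renca follows from their having passed, and their number is no support.

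Within Renca, tumours of responders held less RNA of 5 of the 7 tested genes than tumours of non-responders, by 0.18 to 0.38 on the log2 scale. This comparison asks what set the pretreatment tumours of later responders apart. Cdh16, Pax2, Pax8, Wfdc2 and Sall1 fell, and Sult1c2 and Emx2 did not pass, while of the 15778 genes tested 8.52% were called lower, 11.1% higher and 19.6% in either direction. Median log2 difference was -0.21 over the 7 genes and -0.01 over all genes tested. In bulk tumours, fewer cells of a type and less RNA per cell cannot be told apart.

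Cdh16 showed the widest gap. It had 136, 210 and 260 CPM as its lowest, median and highest values in responders, against 221, 278 and 349 CPM in non-responders. All 12 responders lay below the non-responder median, although the ranges overlapped between 221 and 260 CPM. No member separated the response groups, which only 2 genes of all tested (0.0127%) did. Group means with their SD (n = 12) were 209 ± 35.1 CPM in responders and 272 ± 36.2 CPM in non-responders, a log2 difference of -0.38 ± 0.074 (edgeR quasi-likelihood, adjusted p = 0.0032).

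Among the transcription factor genes, Pax2 had a mean and SD of 16.8 ± 1.88 CPM in the 12 responders and 19.9 ± 1.6 CPM in the 12 non-responders, and 1 responder lay above the median of non-responders. Its lowest, median and highest values were 14.6, 17.1 and 20.3 CPM in responders and 17, 20.2 and 21.6 CPM in non-responders. Pax2 fell by 0.24 ± 0.056 on the log2 scale (adjusted p = 0.00558). Pax8 had 37.1, 46.3 and 55.2 CPM in responders, against 44.2, 53.7 and 65.8 CPM in non-responders, and fell by 0.21 ± 0.058 (adjusted p = 0.0158). Of 12 responders, 1 was above the non-responder median for Pax8 and 2 were for Sall1. Sall1 had 34.4, 42.8 and 49 CPM in responders, against 42.3, 48 and 55.7 CPM in non-responders, and fell by 0.18 ± 0.044 (adjusted p = 0.00767). Emx2 had 16, 21.8 and 25.7 CPM in responders, against 18.6, 22.5 and 26.7 CPM in non-responders, and its log2 difference was -0.07 ± 0.065 (adjusted p = 0.476). Emx2 thus stood near one level in all 4 groups, and its ranges overlapped nearly whole.

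Wfdc2 had 376, 489 and 550 CPM as its lowest, median and highest values in responders, against 497, 555 and 617 CPM in non-responders. Of 12 responders 0 exceeded the non-responder median, and the log2 difference was -0.21 ± 0.052 (edgeR quasi-likelihood, adjusted p = 0.00928). Sult1c2 had 16.5, 22.3 and 27.9 CPM in responders, against 20.1, 24.5 and 27.1 CPM in non-responders, so that its highest library was a responder, and its difference was -0.10 ± 0.068 (adjusted p = 0.322). For Lhx1, 40 counts in responders stood beside 51 in non-responders, a ratio of 0.802 (95% interval 0.516 to 1.24).

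These falls moved with the leukocyte content of the tumours. All 10 leukocyte markers, among them Ptprc (CD45), were called higher in Renca responders, and their sum had a lowest, median and highest value of 2180, 2590 and 3380 CPM in responders, against 1630, 1940 and 2660 CPM in non-responders. With the mean log2 CPM of these markers as a covariate, the 5 differences were between -0.05 and -0.10 and none passed (adjusted p = 1 for each). In that edgeR fit no gene of any kind passed, and 516 had an unadjusted p under 0.05, so the lost calls are not particular to the members. Optical purity of the RNA moved as well: the ratio of absorbance at 260 to that at 230 nm had a mean and SD of 1.99 ± 0.15 in the 12 responders and 2.12 ± 0.11 in the 12 non-responders. With both purity ratios as covariates, no member passed, and Cdh16 stood at -0.27 (adjusted p = 0.0576). That fit called 204 genes of any kind, against 3095 without these covariates. By flow cell, Cdh16 was -0.34 in the first (adjusted p = 0.22, where no gene of any kind passed in edgeR and 2803 had an unadjusted p under 0.05) and -0.42 in the second (adjusted p = 0.0233). The other 4 kept their direction in both, and of them Pax2 alone passed in the second (adjusted p = 0.0499). Whether leukocyte content or RNA purity has a part in these differences beyond those values was not tested.

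**Figure D2:**
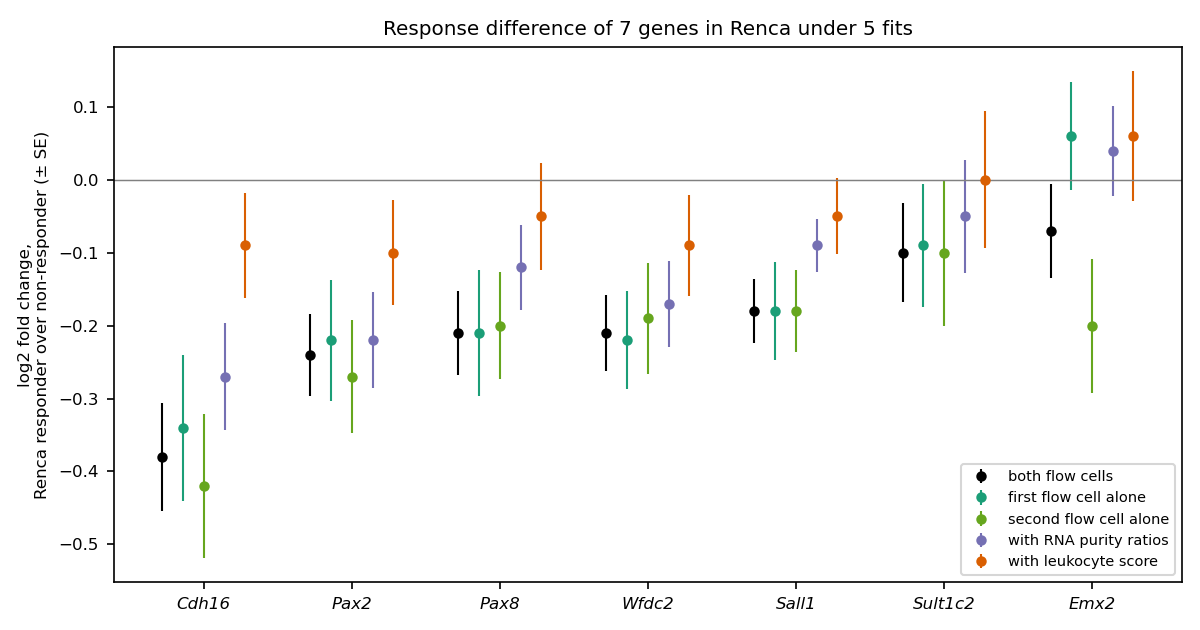
Log2 fold change of Renca responders over Renca non-responders (y axis, bars are SE) for 7 genes (x axis) in the fit of 24 libraries, in each flow cell alone, and with RNA purity ratios or the leukocyte score as covariates. Cdh16 lies at -0.38 in the fit of both flow cells, -0.34 and -0.42 in the single flow cells, -0.27 with the purity ratios and -0.09 with the leukocyte score, and Emx2 stays between -0.20 and 0.06.

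Across the 24 Renca tumours, Cdh16 was lower where leukocyte markers were higher. Its log2 CPM correlated with the leukocyte score at Pearson r = -0.888 and Spearman rho = -0.883 (permutation adjusted p = 0.000175 and 0.000233, over 35 relations), and r was -0.875 without the 2 tumours farthest from the median score. The correlation was r = -0.917 within the 12 responders and r = -0.653 within the 12 non-responders, r = -0.899 in the first flow cell and r = -0.881 in the second, with permutation adjusted p of 0.0339 or less. For Sall1, r was -0.799 and rho -0.775 over all 24 (permutation adjusted p = 0.000175 and 0.00035), and without the 2 farthest tumours r was -0.699. Its r was -0.811 and -0.806 in the first and second flow cells and -0.766 in responders, and -0.578 in non-responders, where it did not pass (permutation adjusted p = 0.0674). Sult1c2 gave r = -0.455 and rho = -0.325 (permutation adjusted p = 0.0363 and 0.159), and r dropped to -0.213 without the 2 farthest tumours, so that its relation rested on them. Pax2, Pax8 and Wfdc2 gave r of -0.755, -0.739 and -0.728 over all 24 and rho of -0.776, -0.745 and -0.782 (permutation adjusted p = 0.000175 for each r and 0.000233, 0.00056 and 0.000233 for rho), and r of -0.728, -0.685 and -0.616 without the 2 farthest. These 3 passed in each flow cell (r from -0.672 to -0.801) but not in each response class: Pax2 did not pass in responders (r = -0.405, permutation adjusted p = 0.223), nor did Wfdc2 (r = -0.33, 0.313), and Pax8 did not in non-responders (r = -0.515, 0.111). Emx2 gave r = -0.487 and rho = -0.449 (permutation adjusted p = 0.0263 and 0.0469) and -0.306 without the 2 farthest. Within flow cells Emx2 gave r = -0.214 in the first and -0.609 in the second (permutation adjusted p = 0.507 and 0.0497), and Sult1c2 gave -0.347 and -0.509 (0.291 and 0.111). Levels are shares of one library total, and all of these points share that total.

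**Figure D3:**
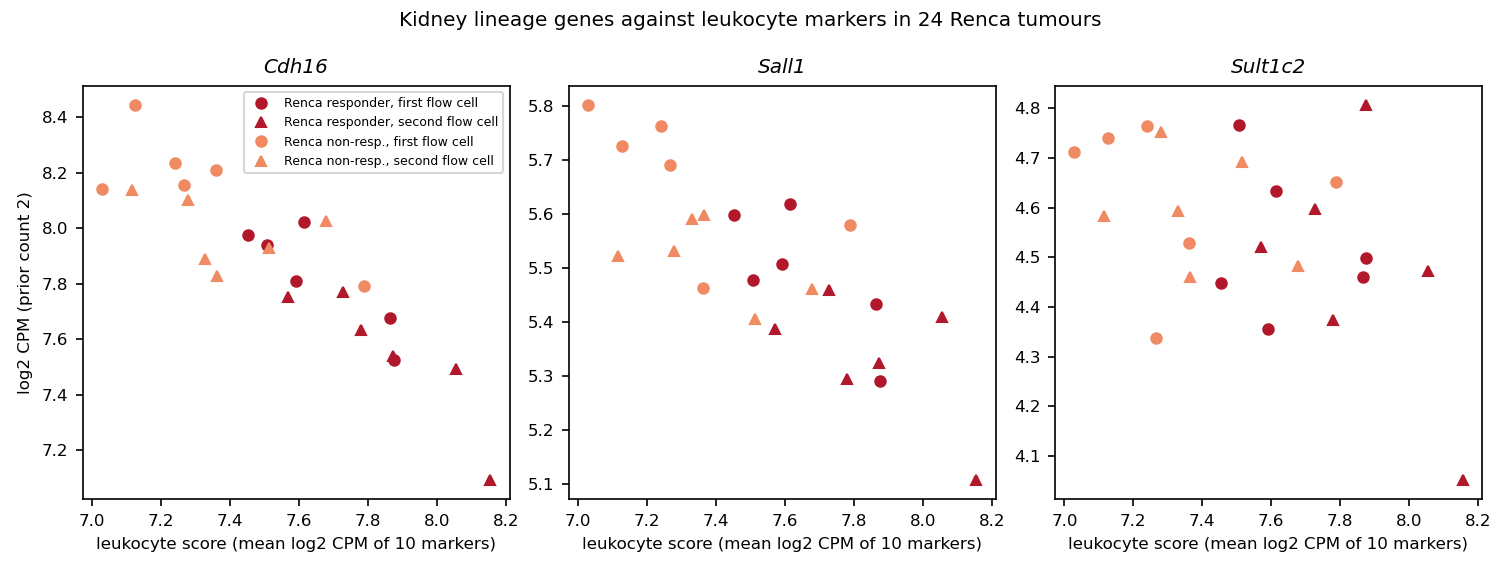
Log2 CPM of Cdh16, Sall1 and Sult1c2 (y axes) against the leukocyte score, the mean log2 CPM of 10 markers (x axes), in 12 Renca responders and 12 Renca non-responders, with flow cells as symbols. The points of Cdh16 fall along a line (r = -0.888) in which responders lie toward higher scores and lower Cdh16, and those of Sult1c2 scatter more widely (r = -0.455).

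Cdh16 was lower in Renca responders relative to some of the other members, while most ratios between members did not pass. Ratios between members, which cancel a change common to both, were compared for all 21 pairs by permuting the response within flow cells. Cdh16 was lower relative to Emx2 by 0.31 on the log2 scale, with a mean log2 ratio and SD of 3.28 ± 0.17 in the 12 responders and 3.59 ± 0.24 in the 12 non-responders (permutation adjusted p = 0.0157), and 12 of 12 responders were below the non-responder median. Relative to Sult1c2 it was lower by 0.28 (permutation adjusted p = 0.0202, 10 of 12 responders below), relative to Sall1 by 0.20 (0.04, 12 of 12) and relative to Pax8 by 0.18 (0.044, 11 of 12). The ratio of Pax2 to Emx2 was lower by 0.17 (permutation adjusted p = 0.0499), with -0.29 in the first flow cell and -0.05 in the second. Cdh16 over Wfdc2 (-0.17) and over Pax2 (-0.14) did not pass (permutation adjusted p = 0.0746 and 0.224), and neither did any other pair. In 24 repeats that left out 1 library each, Cdh16 over Emx2 and over Sult1c2 passed in 24, Cdh16 over Sall1 in 15, over Pax8 in 12 and Pax2 over Emx2 in 8. The ratios were chosen after the member values were seen.

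**Figure D4:**
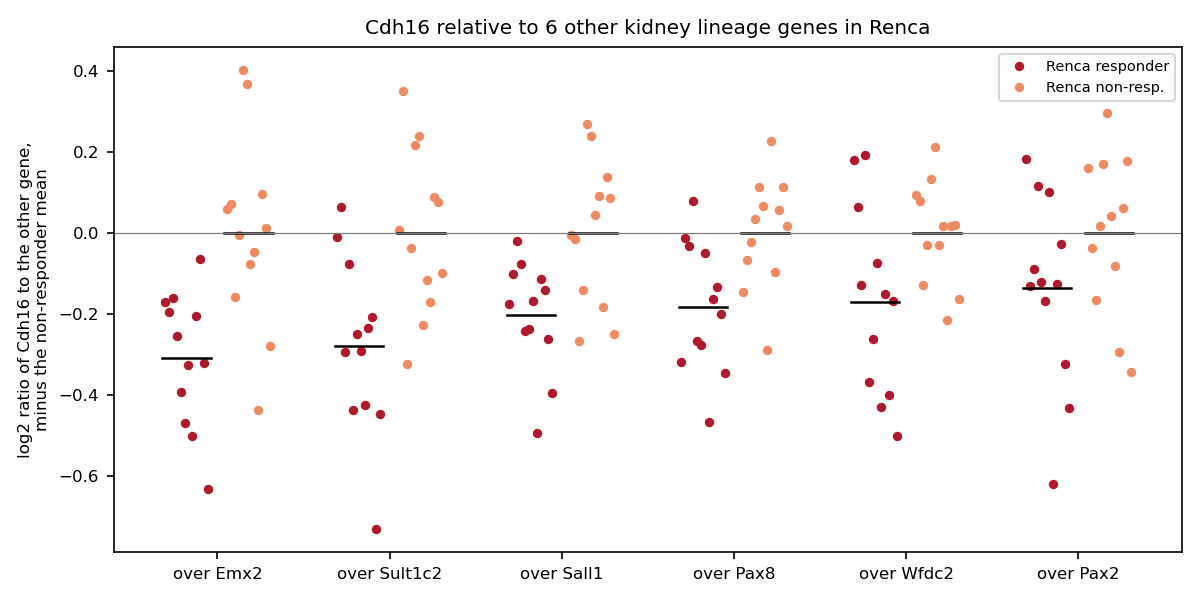
Log2 ratio of Cdh16 to each of 6 other genes (x axis), minus the mean of that ratio in Renca non-responders (y axis), in 12 Renca responders and 12 Renca non-responders; points are libraries and lines are means. Responder means lie below non-responder means for every partner, from 0.31 lower over Emx2 to 0.14 lower over Pax2.

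Member levels also varied together inside the groups. After removal of group means, Sall1 and Emx2 correlated at r = 0.78 over the 24 Renca libraries, Cdh16 and Pax8 at 0.649 and Cdh16 and Sall1 at 0.596, while Pax2 and Pax8 had the lowest value at 0.0956. All points share library totals, and these values are descriptions. Outside the 8 genes, the mean standardised level of the 7 tested members was followed most closely, among 11028 genes, by Ubqln4 at r = 0.935, Hoxb9 at 0.931, Nomo1 at 0.929, Slc6a17 at 0.918, Wwc1 at 0.917 and Mars at 0.914 over the 24 Renca libraries. Hoxb9 is a homeobox gene, Mars encodes methionyl-tRNA synthetase and Wwc1 the scaffold protein KIBRA. The strongest opposite patterns were those of Mitf, a transcription factor gene of melanocytes and myeloid cells, at r = -0.929, Arhgap25, a leukocyte GTPase-activating protein gene, at -0.913 and Chd7, a chromatin remodeller gene, at -0.91.

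In AB1 the only member that could be tested for response was Emx2. Its mean and SD were 22.6 ± 4.43 CPM in the 12 AB1 responders and 23.5 ± 5.76 CPM in the 12 AB1 non-responders, a log2 difference of 0.01 ± 0.12 (edgeR quasi-likelihood, adjusted p = 0.968), in a comparison that called 60.4% of 15859 genes, 27.7% as higher. The fitted sign is opposite to that of the means, and it was -0.17 in the first flow cell alone and 0.17 in the second (adjusted p = 0.395 and 0.394). The difference of the response effect in Renca from that in AB1 was -0.11 ± 0.14 for Emx2 (adjusted p = 0.544), where 41.6% of 16920 genes passed. The other members tested in Renca had too few AB1 counts for that difference to be read: AB1 responders and AB1 non-responders had 5 and 9 counts of Cdh16, 8 and 10 of Pax8, 5 and 12 of Wfdc2, 1 and 1 of Pax2, 1 and 0 of Sall1, and 1 and 0 of Sult1c2.

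Other kidney genes were read from lists by nephron segment, and Renca held some segment genes at high level and lacked others. Of 24 kidney development genes in the table, Lgr5, a Wnt pathway receptor gene, averaged 25.8 ± 12.5 CPM in Renca and 1.85 ± 1.59 CPM in AB1, and Jag1, a Notch ligand gene, 24.2 ± 2.06 and 32.9 ± 10.7 CPM (SD, n = 24). Six2 and Cited1, which mark nephron progenitors, stayed at 5 and 6 counts or fewer in every Renca library, and Fgf8 had none. Counts of the lists below stand beside 8.52% lower and 11.1% higher over all genes tested. Within Renca 5 genes of the list fell in responders and 1 rose of 18 tested, with a median of -0.05 against -0.01 over all genes. Among those that fell, Spry1, a feedback inhibitor of receptor tyrosine kinases, fell by 0.31 ± 0.089 (adjusted p = 0.0189), and Hoxa11, Hoxd11 and Six4 by 0.23, 0.36 and 0.22. Itga8, an integrin gene, rose by 0.63 ± 0.17 (adjusted p = 0.0116). Spry1, Hoxa11, Hoxd11 and Six4 were also called lower in AB1 responders, at -1.13, -0.97, -0.52 and -0.61, so their fall was not particular to Renca. Itga8 was called lower there, at -0.43. Of 17 genes of the list tested in AB1, 11 were called lower and 0 higher, where 60.4% of all genes were called in either direction.

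Among 18 proximal tubule genes, Gatm, of creatine synthesis, averaged 172 ± 26.7 CPM in Renca and 253 ± 107 CPM in AB1, and Aqp1, a water channel gene, 137 ± 29.1 and 464 ± 121 CPM (SD, n = 24). Renca was at or near 0 for the transcription factor gene Hnf4a, at most 1 count in any library, and for Kap, with none. Lrp2, the megalin gene, averaged 3.97 CPM in Renca and 0.0212 CPM in AB1, at 0.238 RPKM in Renca. Of 9 tested proximal tubule genes, 3 rose in Renca responders and none fell: Ass1, of arginine synthesis, by 0.65 ± 0.17 (adjusted p = 0.0109), Gatm by 0.23 ± 0.071 (adjusted p = 0.0248) and Havcr1 (KIM-1) by 0.47 ± 0.15 (adjusted p = 0.0317). The same 3 were called higher in AB1 responders, at 1.13, 0.97 and 0.91, and none was called higher in Renca than in AB1. Median log2 difference of the list was -0.02.

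Distal and collecting duct genes were present in part. Wnk4, a kinase gene of distal salt transport, averaged 130 ± 17 CPM in Renca and 6.03 ± 2.91 CPM in AB1 (SD, n = 24), and Tfcp2l1, a transcription factor gene of the collecting duct, 92.6 ± 18.9 and 0.392 ± 0.216 CPM. Hsd11b2, which inactivates glucocorticoid, averaged 14 ± 4.42 CPM in Renca and 0.592 ± 1.28 CPM in AB1, and Hoxb7 23.6 ± 2.54 and 12.3 ± 2.3 CPM (SD, n = 24). The segment markers Umod, Slc12a1, Kcnj1, Cldn16 and Calb1 did not exceed 3 counts in any Renca library, and Foxi1, the regulator gene of intercalated cells, had none. In Renca responders Tfcp2l1 fell by 0.36 ± 0.092 (adjusted p = 0.00968) and Hsd11b2 by 0.39 ± 0.14 (adjusted p = 0.0484), while Wnk4 was at -0.15 (adjusted p = 0.124) and Hoxb7 at -0.13 (adjusted p = 0.114). Avpr2, the vasopressin receptor gene, rose by 0.41 ± 0.12 at 1.6 CPM in responders and 1.21 CPM in non-responders, and Kcnj10, a potassium channel gene, rose by 0.69 ± 0.12 (adjusted p = 0.00253). Both were also called higher in AB1 responders, Avpr2 at 1.02 and Kcnj10 at 2.34. Neither passed between Renca and AB1 (-0.06 for Avpr2 and 0.37 for Kcnj10). Pvalb, the parvalbumin gene, had a log2 difference of 1 ± 0.48 and did not pass (adjusted p = 0.146). Its mean and SD were 26.8 ± 18.2 CPM in the 12 responders and 13.4 ± 8.59 CPM in the 12 non-responders. Skeletal muscle markers summed to medians of 1280 and 646 CPM in these groups. In AB1 responders Pvalb was called lower, at -1.45, with muscle medians of 598 CPM in AB1 responders and 806 CPM in AB1 non-responders. The relation of Pvalb to muscle content was not tested. Irx3, a homeobox gene, and Scnn1a, a sodium channel subunit gene, averaged 9.17 and 11 CPM in Renca and were at -0.18 and -0.07 (adjusted p = 0.155 and 0.601). Of 8 tested collecting duct genes 2 fell and 1 rose (median -0.10), and of 8 loop and distal genes 1 rose (median 0.19).

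Epithelial genes in Renca were a partial set. Cdh1 (E-cadherin) averaged 99.8 ± 26.3 CPM in Renca and 15.4 ± 8.98 CPM in AB1 (SD, n = 24), Cldn4 55.6 ± 10.5 and 1.97 ± 8.32 CPM, and Pkhd1, the gene of recessive polycystic kidney disease, 38.5 ± 7.47 and 0.0104 ± 0.0219 CPM. Cd24a, a surface glycoprotein gene, averaged 185 ± 14 CPM in Renca and 30.6 ± 11.8 CPM in AB1 and did not pass for response (adjusted p = 0.19). Grhl2, Ovol2, Esrp1 and Krt19 did not exceed 9 counts in any Renca library. Of 12 tested, 5 fell in Renca responders and 1 rose, with a median of -0.20: Cdh1 fell by 0.46 ± 0.11 (adjusted p = 0.00738), Pkhd1 by 0.35 ± 0.088 (adjusted p = 0.00932), Esrp2 by 0.43 ± 0.13 (adjusted p = 0.0206), Cldn4 by 0.25 ± 0.087 (adjusted p = 0.0459) and Pkd2 by 0.18 ± 0.047 (adjusted p = 0.0116), and Spint1, a protease inhibitor gene, rose by 0.67 ± 0.20 (adjusted p = 0.0198). In AB1 responders Pkd2 was also called lower, at -0.46, and Cdh1, Esrp2 and Spint1 did not pass. Leukocyte markers were called higher in Renca responders, as given above. Their relation to the genes of these lists was not tested.

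**Figure D5:**
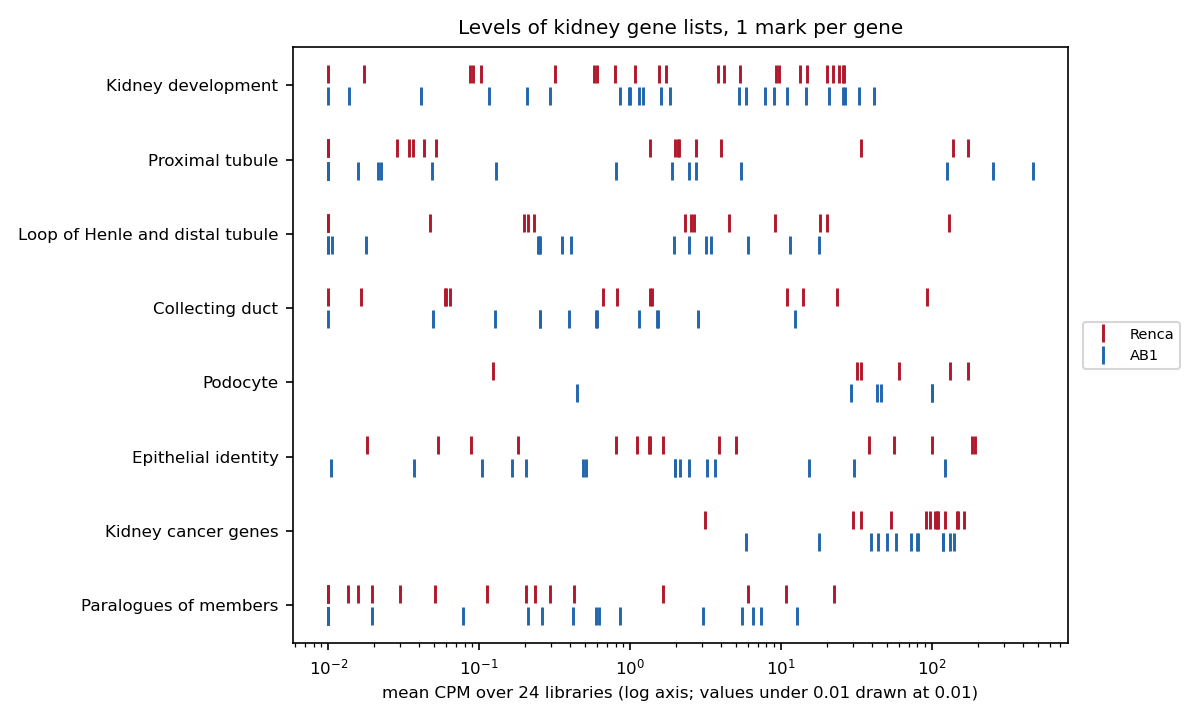
Mean CPM over 24 libraries (x axis, log scale, values under 0.01 drawn at 0.01) of each gene of 8 kidney lists (y axis), 1 mark per gene, with Renca above AB1 in each row. Every list holds genes above 10 CPM in Renca. The lists of kidney development, proximal tubule, loop, collecting duct, epithelium and paralogues also hold genes near the lower edge.

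Podocyte genes were present in both tumours and moved in both directions. Synpo, the synaptopodin gene, averaged 172 ± 26.3 CPM in Renca and 100 ± 18.3 CPM in AB1 (SD, n = 24), and fell by 0.24 ± 0.066 in Renca responders (adjusted p = 0.0124). Ptpro, a phosphatase gene, rose by 0.45 ± 0.11 (adjusted p = 0.00845). Podxl, the podocalyxin gene, was at -0.04 (adjusted p = 0.732). Of 5 tested, 2 rose and 1 fell (median 0.07). In AB1 responders Synpo was also called lower, at -0.28, and Ptpro higher, at 0.87. Among 13 kidney cancer genes, 1 fell in Renca responders, the carbonic anhydrase gene Car12, by 0.30 ± 0.08 (adjusted p = 0.0126), and the median was -0.05. Car12 was also called lower in AB1 responders, at -1.65. Mtor, a growth kinase gene, was at -0.12, its inhibitor gene Tsc1 at -0.11 and the fumarase gene Fh1 at -0.06 (adjusted p = 0.0506, 0.106 and 0.0995). Vhl, the tumour suppressor gene of clear cell kidney cancer, was transcribed at 53.4 CPM in Renca and 43.7 CPM in AB1, and Pbrm1, Kdm5c, Sdhb and Bap1 at 163, 149, 146 and 122 CPM in Renca.

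Paralogues of the 8 genes were mostly silent in Renca. Of 18 in the table, 10 did not reach 10 counts in any Renca library, namely Pax1, Pax3, Pax4, Pax6, Pax9, Sall4, Lhx5, Lhx9, Emx1 and Sult1c1. Pax5, which with Pax2 and Pax8 makes up a subfamily of the PAX genes, averaged 22.3 ± 2.95 CPM in Renca and 0.417 ± 0.203 CPM in AB1 (SD, n = 24), a log2 difference of 5.71 ± 0.13 (edgeR quasi-likelihood, adjusted p = 2.14e-38) with no overlap between the tumours. In Renca responders it stood at -0.17 ± 0.066 (adjusted p = 0.0746). Sult1a1 averaged 10.7 CPM in Renca and 6.48 CPM in AB1, Sall2 6 and 12.8 CPM, and Wfdc1 1.65 and 0.622 CPM. None of 5 tested paralogues passed for response in Renca (median -0.17), and the cadherin gene Cdh17 was at 0.31 ± 0.15 (adjusted p = 0.247).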

How the data were processed

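Whole-tumour RNA was sequenced in 48 libraries, and the deposited table gives raw counts per gene, whole numbers, with no normalisation. The submitters' processing notes list StringTie 1.3.0, HISAT2 2.0.4 and bcl2fastq 2.18.0.12, and as builds hg19 and GRCh37, which are human, while the table's identifiers are those of mouse genes. Which tool counted reads, on which mouse build and with which strandedness, is not given in the sources used here. Of 39637 identifiers, 39461 matched GENCODE M21 (GRCm38), the source of coordinates and exon lengths, which may not be the build of the authors' files. The table is not known to hold every mouse gene, and listed genes that it does not hold are not analysed here.

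Comparisons used edgeR 4.0.16 in R 4.3.3 with TMM scaling, filterByExpr (minimum count 10, minimum total 15), quasi-likelihood F tests, and p adjusted by Benjamini-Hochberg over all genes tested with a threshold of 0.05. The standard error is the size of the log2 fold change over the square root of F. Response was fitted within each tumour with flow cell as a term, Renca against AB1 with response as a term, and the difference of effects over all 48 libraries. CPM used TMM totals over all libraries, and log2 CPM a prior count of 2. Permutation tests were two-sided with 100000 resamples, 10000 where a library was left out, and 1e-05 is the smallest p that 100000 can give. Pooled ratios have 95% conditional binomial (Clopper-Pearson) intervals, which cover counting error only. The edgeR fits were tested on simulated data before use, with log2 differences of 0.5 and 1. Smaller differences were not simulated. At 0.5, 84% were recovered for response in Renca, 72% in AB1, 86% between tumours and 57% for the difference of effects. False calls were 4.17%, 4.05%, 6.15% and 2.03% of calls in the same order. Replicates of a group differed beyond sampling noise, so none was counted as a duplicate. Per the labels, the 12 same-numbered pairs of each tumour shared a sequencing lane, which pairs them by batch, and their deviations from group means correlated at a median of 0.113 in Renca and 0.0421 in AB1.

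The 8 genes and the lists were chosen with earlier results of these data known. Named from each list were the 4 genes of smallest p for response in Renca and the 4 of highest mean log2 CPM in Renca. Genes given as at or near 0, and Six4, Hoxd11, Esrp2, Vhl and Pax5's B cell companions, were chosen after their values were seen. Likeness took the 6 highest and 3 lowest correlations with the mean standardised member level, among genes whose mean log2 CPM reached 1. Alternatives were RLE size factors, DESeq2 1.42.0, no filter, no flow cell term, single flow cells, replicate block, RNA purity, leukocyte score, 1 fit of all libraries and leaving out each library. Permutation of Lhx1 and of member ratios, and a B cell list, were chosen after the data were seen. Some genes of the lists are counted in them but not reported by name here.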

Additional observations from a re-analysis of the deposited data

Results flagged for a closer look

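Lhx1 was picked out after its values were seen, because the response difference in Renca and in AB1 differed by a test of the difference itself, although the gene is nearly silent and did not pass the filter on low counts. Fitted with no such filter, the log2 difference of responders from non-responders in Renca minus that in AB1 was -2.11 ± 0.62 (edgeR quasi-likelihood, adjusted p = 0.00929). Passing was common: in the filtered fits 41.6% of 16920 genes passed for this difference and 60.4% of 15859 for response in AB1. In AB1 responders Lhx1 had 34 counts, from 1 to 7 per library and never 0, against 9 counts in AB1 non-responders, from 0 to 3 with 7 of 12 libraries at 0. The pooled AB1 ratio was 3.95 (95% interval 1.85 to 9.36, counting error only), and mean CPM with SD (n = 12) was 0.123 ± 0.0767 in AB1 responders, against 0.0301 ± 0.0454 in AB1 non-responders. Permuting response within flow cells, a test chosen after the data were seen, gave p = 0.00116 in AB1, with p from 3e-04 to 0.003 when each library was left out in turn, and p = 0.411 in Renca. By flow cell, AB1 responders and non-responders averaged 0.121 and 0.00845 CPM in the first and 0.125 and 0.0455 CPM in the second. The leukocyte score was also higher in AB1 responders, at 8.7 ± 0.342 against 7.44 ± 0.355 in AB1 non-responders (SD, n = 12 each), and its part in this result was not tested.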

How the results depend on the processing

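The contrast of Renca with AB1 kept the direction and call of Wfdc2, Cdh16, Sall1, Sult1c2, Pax2 and Pax8 under all 6 alternatives and with each of 48 libraries left out, and Emx2 passed under none of them (-0.13 to -0.05 with 1 library left out). Response counts in Renca moved from 3095 genes to 0 in the first flow cell, 1253 in the second, 204 with RNA purity ratios, 0 with the leukocyte score (516 at an unadjusted p under 0.05) and 1040 in 1 fit of all 48 libraries. In AB1 the count moved from 9577 to 5816 in the first flow cell and to 1 with the leukocyte score. With 1 library left out, counts were 2304 to 3954 in Renca, 9069 to 9998 in AB1 and 13201 to 13353 between tumours. No response call of Cdh16, Pax2, Pax8, Sall1 or Wfdc2 was lost in 24 such fits, with a highest adjusted p of 0.0372, for Pax8. In the 1 fit of all libraries Pax2, Pax8 and Wfdc2 did not pass (adjusted p = 0.0506, 0.0901 and 0.0665), and in the second flow cell Pax8, Sall1 and Wfdc2 did not (0.107, 0.0694 and 0.138). Sult1c2 in Renca changed sign with the leukocyte score, at 0.00 (adjusted p = 1). Emx2 in Renca changed sign to 0.06 in the first flow cell, 0.04 with purity ratios and 0.06 with the leukocyte score, and in AB1 to -0.17 in the first flow cell and to values down to -0.04 (range -0.04 to 0.07) with 1 library left out. RLE size factors turned the balance of the difference of effects from 3155 higher and 3877 lower to 3808 higher and 3452 lower. Of the ratios between members, a choice made after the data were seen, Pax8 over Sall1 ranged from -0.04 to 0.01 and Pax8 over Wfdc2 from -0.03 to 0.04 with 1 library left out, and so changed sign, while Cdh16 over Wfdc2 passed in 3 of those fits, Sall1 over Emx2 in 2 and Wfdc2 over Emx2 in 1. The replicate block in place of flow cell changed no member's call. The cause of each move was not tested. Low counts limit the precision of Lhx1 in both tumours and of the other members, except Emx2, in AB1.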

Other observations

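The PAX genes of the subfamily that holds Pax2 and Pax8 were all transcribed in Renca, and Pax5 among them is best known as the identity factor of B cells. Genes of B cells were therefore read beside it, from a list written after the data were seen. Cd79a averaged 1.12 ± 0.479 CPM in Renca and 0.802 ± 0.307 CPM in AB1, and Ms4a1, the CD20 gene, 0.47 ± 0.217 and 0.438 ± 0.226 CPM (SD, n = 24 each). Pax5 itself averaged 22.3 CPM in Renca and 0.417 CPM in AB1. Over the 24 Renca libraries the log2 CPM of Pax5 and of Cd22 correlated at r = -0.624 and rho = -0.68, as descriptions over libraries that share their totals. No AB1 library exceeded 20 Pax5 counts and no Renca library had fewer than 381.

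Csn3, the kappa casein gene of milk, averaged 22 ± 3.51 CPM in Renca and 0.243 ± 0.308 CPM in AB1 (SD, n = 24 each). Other mammary genes were at or near 0 in Renca: Csn1s1 had no count, and Csn2, Wap and Btn1a1 had 3, 2 and 21 counts over 24 libraries. In Renca responders Csn3 averaged 20.8 ± 3.62 CPM, against 23.1 ± 3.13 CPM in non-responders (SD, n = 12 each), and the log2 difference was -0.15 ± 0.088 (edgeR quasi-likelihood, adjusted p = 0.247).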
